A study of Homo sapiens with 18 samples.

Results

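MIR155HG, MIR17HG, MIR22HG, DLEU1, DLEU2, MALAT1 and NEAT1 are long noncoding RNAs. MIR155HG, MIR17HG, MIR22HG and DLEU2 hold the hairpins of microRNAs, MALAT1 and NEAT1 stay in the nucleus, and DLEU1 starts beside DLEU2. The RNAs were taken by gene symbol from tables of 23686 genes, and all 7 of the 7 symbols were found in both cell lines and passed the low-count filter in both. RNA sequencing had been done on OCI-Ly1 and TMD8, established cell lines from human diffuse large B-cell lymphoma, exposed to its vehicle or to JIB-04, an inhibitor of histone demethylases of the Jumonji (JmjC) family. There were 6 groups of 3 libraries: OCI-Ly1 with 0.01% DMSO, with 150 nM JIB-04 and with 500 nM JIB-04, and TMD8 with the same 3 treatments. The lines were grown in different media, so line and medium cannot be told apart. The labels call the libraries technical triplicates of ribosome-depleted total RNA and name neither separate cultures nor a treatment time. The p-values below therefore measure the spread between these libraries, which may be only technical.

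A microRNA host is transcribed as a long primary transcript. The nuclear enzyme DROSHA cuts hairpins out of it, DICER1 trims each hairpin in the cytoplasm, and an Argonaute protein carries the guide strand, whose seed pairs with messenger RNAs and lowers their output. miR-155, made from MIR155HG, is induced by B-cell activation and is known to be high in activated B-cell (ABC) type lymphoma. MIR17HG carries a cluster of 6 hairpins, from miR-17 to miR-92a, that is amplified in some B-cell lymphomas and is a known target of MYC. miR-15a and miR-16 lie in an intron of DLEU2, in a stretch of chromosome 13 that is often lost in chronic lymphocytic leukaemia, and DLEU1 starts beside DLEU2 on the opposite strand. MALAT1 gathers in nuclear speckles, where splicing factors are stored, and NEAT1 is the scaffold of paraspeckles, which hold RNA-binding proteins in the nucleus. The tables measure the host transcripts, not the mature microRNAs.

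The guide strands of the 10 hairpins inside the hosts show which seeds each host could supply. The target lists examined below were of published targets of each microRNA, and genes were not searched for seed matches. All 10 hairpins were matched in RefSeq (GRCh38.p14). Each mature RNA is printed 5′ to 3′ with its seed, bases 2 to 8, in capitals. In MIR155HG and MIR22HG there is 1 hairpin each, in MIR17HG there are 6 and in DLEU2 there are 2.
miR-155-5p, in MIR155HG, chr21:25573983-25574006, plus strand: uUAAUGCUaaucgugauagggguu
miR-17-5p, in MIR17HG, chr13:91350618-91350640, plus strand: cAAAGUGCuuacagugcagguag
miR-20a-5p, in MIR17HG, chr13:91351072-91351094, plus strand: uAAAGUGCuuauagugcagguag
miR-18a-5p, in MIR17HG, chr13:91350756-91350778, plus strand: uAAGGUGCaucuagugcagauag
miR-19a-3p, in MIR17HG, chr13:91350939-91350961, plus strand: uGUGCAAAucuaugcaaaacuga
miR-19b-3p, in MIR17HG, chr13:91351245-91351267, plus strand: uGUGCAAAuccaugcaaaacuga
miR-92a-3p, in MIR17HG, chr13:91351361-91351382, plus strand: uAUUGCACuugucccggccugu
miR-22-3p, in MIR22HG, chr17:1713914-1713935, minus strand: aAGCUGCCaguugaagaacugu
miR-15a-5p, in DLEU2, chr13:50049167-50049188, minus strand: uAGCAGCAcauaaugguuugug
miR-16-5p, in DLEU2, chr13:50049027-50049048, minus strand: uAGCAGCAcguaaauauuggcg
The 10 strands hold 7 distinct seeds. miR-17-5p and miR-20a-5p share AAAGUGC, the miR-19 strands share GUGCAAA, and miR-15a-5p and miR-16-5p share AGCAGCA. The seeds of miR-155-5p and miR-22-3p were each found in 1 of the 2370 mature human microRNAs of the same table, while 8 carried AAAGUGC and 7 carried AGCAGCA. The rows of the hairpins themselves were at 0 in every library except those of MIR15A, with 0 to 13 estimated counts, and MIR16-1, with 0 to 2, so no hairpin passed the filter.

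A library of OCI-Ly1 held 17579732 to 32651115 estimated counts and one of TMD8 held 9550092 to 20509500, and the 7 transcripts together held 0.357% to 0.612% of a library. All 6 B-cell markers were above 1 CPM in every group, CPM being counts scaled to a fixed library total. The summed level of 8 ABC markers with DMSO was 605 to 620.0 CPM in OCI-Ly1 and 6316 to 6873 in TMD8, and that of 7 germinal-centre markers was 767 to 794 and 165 to 168; LMO2 and SERPINA9 of the latter list were near 0 in OCI-Ly1. The sum of 5 T-cell markers in OCI-Ly1 went from 19.3 to 23.6 CPM with DMSO to 8.90 to 9.82 at 500 nM, and 3 of 5 and 2 of 5 were above 1 CPM. In TMD8 it was 3.49 to 4.15 and 5.10 to 5.38 CPM, with CD3E at 0 in all libraries. The sum of 6 epithelial or stromal markers in TMD8 went from 23.5 to 25.1 CPM to 53.0 to 57.2, with 4 of 6 above 1 CPM at both, and COL1A1 made up 3.67 and then 30.5 CPM of it. In OCI-Ly1 that sum was 18.1 to 21.0 and then 15.6 to 16.7 CPM, and 5 myeloid markers summed to at most 3.64 CPM in any library. Several of these sums changed with dose, and their part in the results was not tested. In bulk RNA, fewer cells expressing a transcript and less of it per cell cannot be told apart.

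With 500 nM JIB-04 the 7 transcripts moved in both directions. MALAT1, NEAT1 and MIR22HG rose in both lines, and MIR17HG and DLEU1 fell in both, although the fall of MIR17HG in TMD8 depended on how transcript length was treated. MIR155HG rose in OCI-Ly1, where it was scarce. Not all of these calls held: that of DLEU1 in TMD8 was lost in 7 of 19 alternative analyses. Those of MIR22HG and MIR155HG in OCI-Ly1 were lost in 4 of 19 each. For DLEU1 in OCI-Ly1 and MALAT1 in TMD8 the number was 2 of 19 each. The DLEU2 row rose in TMD8, but its sum with the row of a copy, DLEU2L, was not called. A gene was called at an edgeR adjusted p under 0.05, adjusted over all genes tested. Each dose comparison of a line used the same DMSO libraries, so the calls at 150 nM and 500 nM are not independent of each other.

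**Figure D1:**
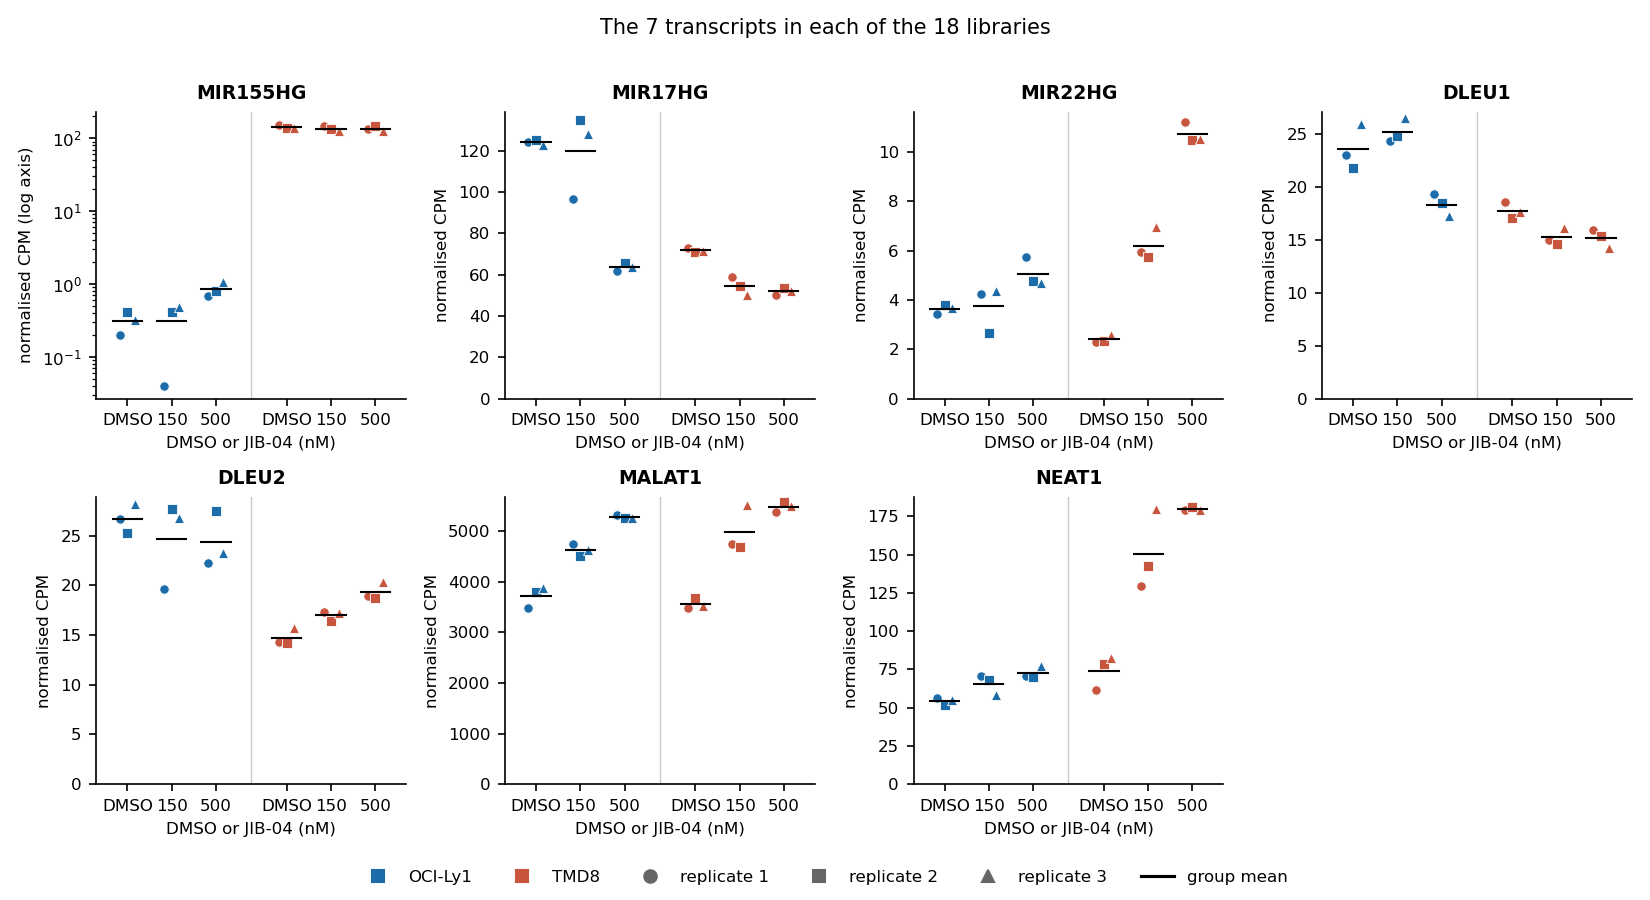
Normalised CPM (y axis) of each of the 7 transcripts in all 18 libraries, by treatment (x axis), with 1 point per library and a bar at the group mean of 3; the axis of MIR155HG is logarithmic. MALAT1, NEAT1 and MIR22HG stand higher at 500 nM than with DMSO in both lines, and the MIR155HG points of the lines lie far apart.

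In OCI-Ly1 at 500 nM against DMSO, 6 of 7 were called, 4 higher and 2 lower, where 53.6% of the 15638 tested genes were called (27.7% higher and 25.9% lower). At 150 nM against DMSO 1 of 7 was called, higher, where 0.889% of genes were (0.748% higher and 0.141% lower). At 500 nM against 150 nM 4 of 7 were called, 2 each way, where 46.2% were (25.1% higher and 21.1% lower). In TMD8 at 500 nM against DMSO, 6 of 7 were called, 4 higher and 2 lower, where 60.7% of the 15363 tested genes were (29.9% higher and 30.7% lower). At 150 nM against DMSO the numbers were again 6, 4 and 2, where 44.2% were called (19.2% higher and 25.0% lower). At 500 nM against 150 nM 1 of 7 was called, higher, where 28.7% were (13.7% higher and 15.0% lower). More than 50% of the genes of each line were called at 500 nM, so the number of members called there is not particular to them. The median log2 fold change of the 7 at 500 nM was 0.42 in OCI-Ly1 and 0.39 in TMD8, beside 0.00 and 0.04 for all tested genes. The TMD8 median is the value of the DLEU2 row, and it became -0.02 with DLEU2L summed. On log2(TPM + 1) it was 0.02, beside -0.278 for all genes on that scale.

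**Figure D2:**
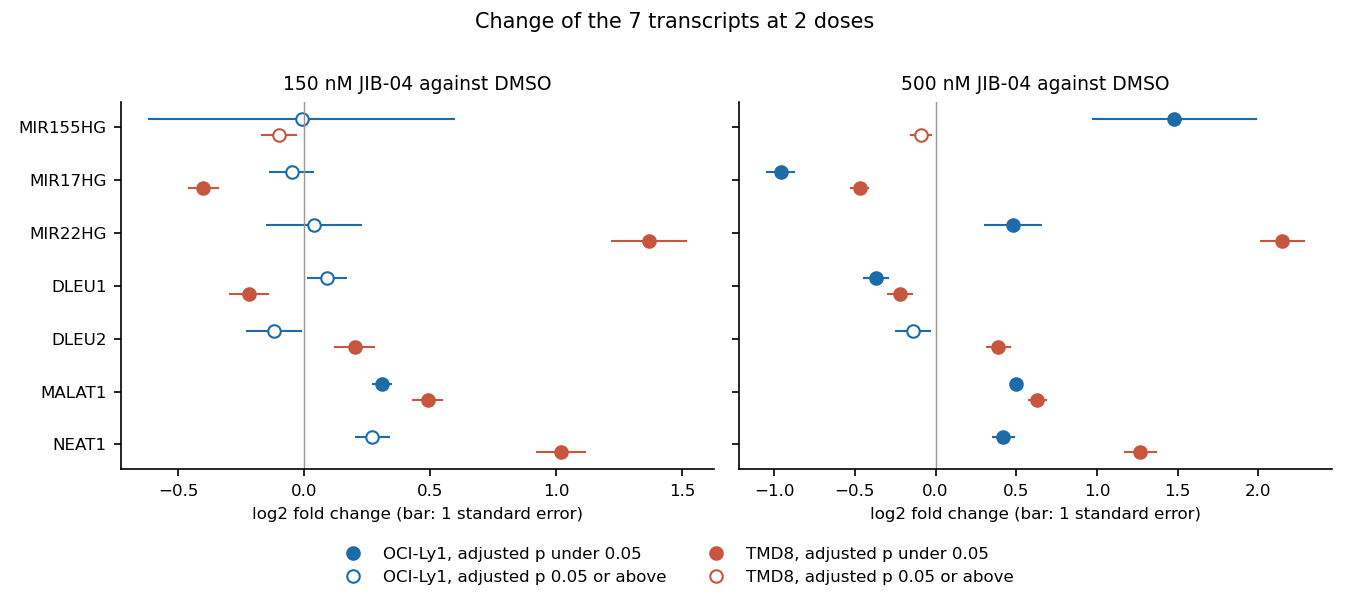
Log2 fold change against DMSO (x axis) of the 7 transcripts at 150 nM and 500 nM in OCI-Ly1 and TMD8, with bars of 1 standard error; filled points have an edgeR adjusted p under 0.05. At 500 nM the changes run from -0.96 for MIR17HG in OCI-Ly1 to 2.15 for MIR22HG in TMD8.

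MIR155HG, the host of miR-155, set the lines apart more than any other of the 7. In OCI-Ly1 it had 5, 7 and 8 estimated counts in the DMSO libraries, 1, 10 and 9 under 150 nM and 23, 21 and 32 under 500 nM. As normalised CPM these were 0.198, 0.411 and 0.323, then 0.0404, 0.413 and 0.479, then 0.685, 0.813 and 1.05. All 3 libraries at 500 nM lay above the other 6, at a level that stayed near 1 CPM. The log2 fold change at 500 nM against DMSO was 1.48 (SE 0.51, edgeR adjusted p 0.02), or 2.79-fold, and at 500 nM against 150 nM it was 1.49 (SE 0.51, edgeR adjusted p 0.023). With so few counts the first call was lost without DMSO library 1 (1.22, edgeR adjusted p 0.092) or 500 nM library 3 (1.29, edgeR adjusted p 0.079), and on log2(TPM + 0.1) (1.34, limma adjusted p 0.064) and centred log2(TPM + 1) (0.34, limma adjusted p 0.078). The second call was lost without 150 nM library 1 (0.92, edgeR adjusted p 0.12) or 500 nM library 3 (1.30, edgeR adjusted p 0.086), and on centred log2(TPM + 1) (0.38, limma adjusted p 0.059). At 150 nM against DMSO the change was -0.01 with a 95% interval from -1.20 to 1.18. In TMD8 MIR155HG stood at 154, 141 and 137 CPM in the DMSO libraries, 147, 133 and 124 under 150 nM and 132, 146 and 125 under 500 nM. These 3 groups overlapped. The change in TMD8 at 500 nM was -0.09 (SE 0.07, edgeR adjusted p 0.24), with an interval from -0.23 to 0.04; on log2(TPM + 1), a scale on which the median of all genes fell as well, it was -0.47 (limma adjusted p 0.0086). The level with DMSO was far lower in OCI-Ly1 than in TMD8 (log2 difference -9.0, SE 0.17, edgeR adjusted p 5.5e-26), where 76.7% of 16604 genes differed between the lines. The change at 500 nM was larger in OCI-Ly1 than in TMD8 by 1.61 (SE 0.42, edgeR adjusted p 0.0029).

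In the data the AP-1 genes FOSB and JUNB rose in both lines at 500 nM, while MIR155HG was called only in OCI-Ly1. A link between these changes was not tested. The promoter of MIR155HG is shown because of the AP-1 rises and because AP-1 genes were among the transcription factors examined with it. It spans chr21:25561895-25562194 on the plus strand (RefSeq, GRCh38.p14), from 250 bases before the start site to 50 after it, and the letters of the AP-1 motif TGANTCA are in capitals.
MIR155HG promoter: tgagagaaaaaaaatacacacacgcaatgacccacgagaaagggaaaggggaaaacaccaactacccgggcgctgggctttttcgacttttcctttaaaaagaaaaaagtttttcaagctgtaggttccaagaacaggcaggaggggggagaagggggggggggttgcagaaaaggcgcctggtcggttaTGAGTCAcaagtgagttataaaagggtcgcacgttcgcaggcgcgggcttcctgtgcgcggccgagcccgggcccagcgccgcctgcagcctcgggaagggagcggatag
The motif was searched on both strands, matched once, at -60 from the start site, and is present in 7.71% of the 35116 promoters of the same length in the table. A further 5 motifs were searched the same way: the E-box CACGTG (in 7.26% of promoters), the CRE TGACGTCA (1.85%), the NF-kB motif (0.558%), the E2F motif TTTNGCGC (1.79%) and a heat shock element GAANNTTC (6.77%). Among the 8 promoter windows of the members in the table, which held none for NEAT1, the only other match was an E-box in 1 DLEU2 window at -230. No measurement here bears on whether any factor binds these windows.

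MIR17HG, the host of the miR-17 cluster, fell in OCI-Ly1 at 500 nM. Its level was 124, 125 and 123 CPM in the DMSO libraries, 96.5, 135 and 128 under 150 nM and 61.8, 65.7 and 63.5 under 500 nM. The 500 nM libraries lay below the other 6, and 150 nM library 1 lay below all 3 DMSO libraries while the other two lay above them. At 500 nM it was 1.95-fold lower (log2 fold change -0.96, SE 0.09, edgeR adjusted p 6.6e-08). The value at 150 nM was -0.05 (SE 0.09, edgeR adjusted p 0.89). In TMD8 the estimated fragments of MIR17HG gave 72.8, 71.0 and 71.3 CPM in the DMSO libraries, 58.8, 54.4 and 50.1 under 150 nM and 50.3, 53.3 and 52.3 under 500 nM. Both doses lay below DMSO and overlapped each other. The changes were -0.40 (SE 0.06, edgeR adjusted p 2.7e-05) and -0.47 (SE 0.06, edgeR adjusted p 2.4e-06); the latter was -0.03 (limma adjusted p 0.6) on centred log2(TPM + 1).

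The length behind these fragments moved too. The deposited estimated count divided by the deposited TPM gives the mean effective length that the authors' quantification assigned to a gene in each library. The transcripts used in it are not given. GENCODE 29 lists 3 for MIR17HG, of 931, 2032 and 2845 bases, but others may lie behind these lengths. With MALAT1 at its longest length there, 8708 bases, the DMSO lengths of MIR17HG given below would exceed all 3. Relative to the length of MALAT1 in the same library, that of MIR17HG in TMD8 was 0.434 ± 0.0352 (SD, n = 3) with DMSO, 0.393 ± 0.0329 at 150 nM and 0.308 ± 0.00674 at 500 nM. The fall at 500 nM was -0.49 on the log2 scale (SE 0.07, limma adjusted p 0.004), where 13.9% of the 1599 genes whose length varied were called. In OCI-Ly1 it was 0.490 ± 0.00284, 0.481 ± 0.0195 and 0.446 ± 0.0353, a change of -0.14 (SE 0.06, limma adjusted p 0.18), where 4.51% of 1686 genes were called. Per unit of length, MIR17HG in TMD8 was at 155, 164 and 179 in the DMSO libraries, 138, 139 and 139 under 150 nM and 165, 176 and 165 under 500 nM, in CPM divided by the relative length. The 500 nM libraries lay within the range of DMSO on that scale, and the 150 nM libraries below it. With length as an offset, an alternative chosen after seeing the data, the change in TMD8 was 0.02 (edgeR adjusted p 0.78) at 500 nM and -0.26 (edgeR adjusted p 0.0013) at 150 nM. In OCI-Ly1 at 500 nM it was -0.82 (edgeR adjusted p 2.9e-06), so the fall in that line held on both scales.

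**Figure D3:**
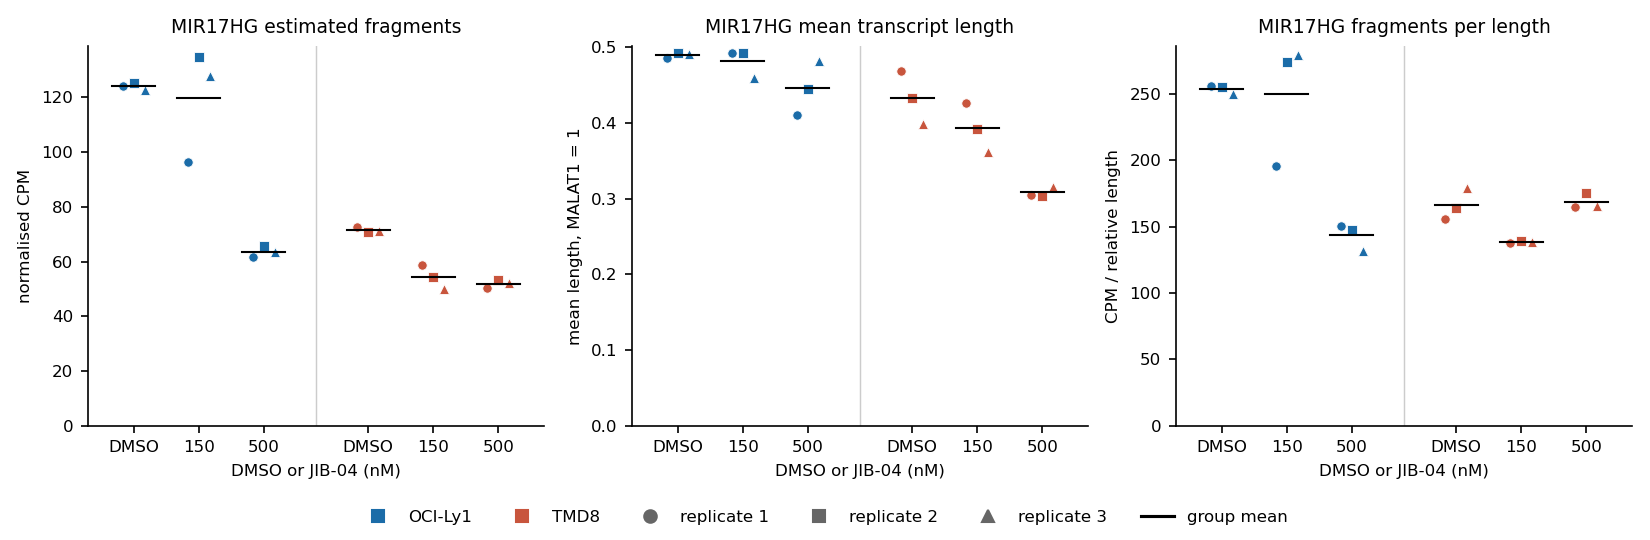
MIR17HG in the 18 libraries, by treatment (x axis): normalised CPM (left), mean transcript length relative to MALAT1 (middle) and CPM divided by that length (right), with bars at the means of 3. In TMD8 the mean length goes from 0.434 to 0.308, and the level per length at 500 nM lies within the range of DMSO.

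MIR22HG, the host of miR-22, had the largest rise of the 7 in TMD8 and was scarce with DMSO in both lines. In TMD8 it had 36, 42 and 51 estimated counts with DMSO and 103 to 170 at 500 nM. Its levels were 2.29, 2.35 and 2.57 CPM in the DMSO libraries, 5.95, 5.73 and 6.94 under 150 nM and 11.2, 10.5 and 10.5 under 500 nM. No groups overlapped, and each dose stood above the one before. At 150 nM the log2 fold change came to 1.37 (SE 0.15, edgeR adjusted p 9.8e-07). At 500 nM it was 2.15 (SE 0.14, edgeR adjusted p 4.7e-10), or 4.45-fold. From 150 nM to 500 nM the change was 0.78 (SE 0.12, edgeR adjusted p 0.00014), and 98.2% of tested genes had a smaller or equal change at 500 nM against DMSO. In OCI-Ly1 the levels were 3.45, 3.81 and 3.67 CPM in the DMSO libraries, 4.24, 2.64 and 4.36 under 150 nM and 5.75, 4.76 and 4.71 under 500 nM. The 500 nM libraries lay above the rest by a narrow margin. The change of 0.48 (SE 0.18, edgeR adjusted p 0.032) was lost without DMSO library 1 (0.44, edgeR adjusted p 0.093), DMSO library 3 (0.49, 0.064) or 500 nM library 1 (0.38, 0.14), and on centred log2(TPM + 1) (0.34, limma adjusted p 0.092). The rise was smaller in OCI-Ly1 than in TMD8 by 1.33 at 150 nM (log2 difference -1.33, SE 0.24, edgeR adjusted p 0.00027) and by 1.64 at 500 nM (-1.64, SE 0.23, edgeR adjusted p 2.8e-06).

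DLEU1 and DLEU2 start at windows that overlap head to head on chromosome 13, the DLEU1 window on the plus strand at chr13:50081919-50082218 and a DLEU2 window on the minus strand at chr13:50081992-50082291 (RefSeq, GRCh38.p14). A further DLEU2 start lies apart from it, at chr13:50125492-50125791. The DLEU1 window is shown because most of it also belongs to the DLEU2 window.
DLEU1 promoter: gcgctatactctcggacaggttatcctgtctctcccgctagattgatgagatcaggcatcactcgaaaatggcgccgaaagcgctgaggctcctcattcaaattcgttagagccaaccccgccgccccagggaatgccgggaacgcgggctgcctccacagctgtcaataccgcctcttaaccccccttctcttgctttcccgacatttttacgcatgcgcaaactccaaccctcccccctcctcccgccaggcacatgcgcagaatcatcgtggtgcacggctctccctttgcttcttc
None of the 6 motifs was found in it.

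DLEU1, a spliced noncoding transcript with no microRNA hairpin among those listed, fell at 500 nM in OCI-Ly1. It was at 23.0, 21.8 and 25.9 CPM in the DMSO libraries, 24.3, 24.8 and 26.5 under 150 nM and 19.3, 18.5 and 17.2 under 500 nM. The 500 nM libraries lay below the other 6. The change at 500 nM was -0.37 (SE 0.08, edgeR adjusted p 0.0013), or -0.22 and not called on log2(TPM + 1) and log2(TPM + 0.1) (limma adjusted p 0.057 on both). At 150 nM it was 0.09 (SE 0.08, edgeR adjusted p 0.76). DLEU1 in TMD8 stood at 18.6, 17.0 and 17.6 CPM in the DMSO libraries, 15.0, 14.6 and 16.1 under 150 nM and 15.9, 15.3 and 14.2 under 500 nM. Both doses lay below DMSO by a narrow margin. The changes of -0.22 (SE 0.08, edgeR adjusted p 0.037) and -0.22 (SE 0.08, edgeR adjusted p 0.031) passed the threshold with TMM scaling. They did not pass it for DLEU1 with DESeq2 (-0.21, adjusted p 0.13, and -0.23, adjusted p 0.084) or with library size as the only scaling (-0.13, edgeR adjusted p 0.2, and -0.13, 0.19) or upper-quartile scaling (-0.12, 0.23, and -0.09, 0.35). At 150 nM the call was also lost without any 1 of DMSO libraries 1 and 3 or of the 3 libraries at 150 nM (edgeR adjusted p 0.055 to 0.12 for DLEU1). At 500 nM it was lost without DMSO library 1 or 3 or 500 nM library 2 or 3 (0.055 to 0.1).

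DLEU2, the host of miR-15a and miR-16, was counted beside DLEU2L, a copy of it on chromosome 1 that RefSeq lists as a noncoding pseudogene. DLEU2 was at 14.3, 14.2 and 15.7 CPM in the DMSO libraries, 17.3, 16.4 and 17.2 under 150 nM and 19.0, 18.8 and 20.4 under 500 nM in TMD8. These groups did not overlap, and the changes were 0.20 (SE 0.08, edgeR adjusted p 0.044) and 0.39 (SE 0.08, edgeR adjusted p 0.00041). DLEU2L moved the opposite way, from 17.0 ± 2.32 CPM (SD, n = 3) with DMSO to 12.8 ± 1.03 and 11.8 ± 1.32, with a change of -0.50 at 500 nM (SE 0.11, edgeR adjusted p 0.00084). Neither row held whole numbers throughout: within a tolerance of 0.001 the estimated count of DLEU2 was whole in 0 of 18 libraries and that of DLEU2L in 5, so fragments had been divided among rows. The sum of both rows in TMD8 was 31.7 ± 2.29 CPM with DMSO, 29.8 ± 1.22 at 150 nM and 31.2 ± 0.534 at 500 nM. With both rows summed for the test, an alternative chosen after seeing the data, the change of DLEU2 was -0.09 (edgeR adjusted p 0.29) at 150 nM and -0.02 (edgeR adjusted p 0.82) at 500 nM. In the 5 libraries where DLEU2L was whole DLEU2 was not, so at least there DLEU2 shared fragments with some row other than DLEU2L, which was not identified. The sum therefore does not settle whether DLEU2 rose, and the value of its row is uncertain. The 150 nM call of DLEU2 was also lost in 9 further alternatives, among them DESeq2 (0.21, adjusted p 0.13), no filter (0.22, edgeR adjusted p 0.057) and the fits without DMSO library 1 or 2 or any 1 of the 150 nM libraries (0.17 to 0.22, edgeR adjusted p 0.062 to 0.15). On log2(TPM + 1) the changes of DLEU2 were 0.04 at 150 nM and 0.02 at 500 nM (limma adjusted p 0.73 and 0.87). The medians of all genes on that scale were -0.129 and -0.278. On centred log2(TPM + 1) the DLEU2 row kept its call at both doses.

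In OCI-Ly1 DLEU2 was at 26.7, 25.2 and 28.2 CPM in the DMSO libraries, 19.7, 27.7 and 26.8 under 150 nM and 22.2, 27.5 and 23.3 under 500 nM. The groups overlapped, and the change at 500 nM was -0.14 (SE 0.11, edgeR adjusted p 0.30). The sum with DLEU2L was 55.9 ± 5.71, 52.4 ± 11.6 and 51.9 ± 4.90 CPM, with a change of -0.11 (edgeR adjusted p 0.45). The change of the DLEU2 row at 500 nM was smaller in OCI-Ly1 than in TMD8 by 0.50 (log2 difference -0.50, SE 0.15, edgeR adjusted p 0.0081). With DLEU2L summed that difference was -0.06 (edgeR adjusted p 0.79). For DLEU2 alone on log2(TPM + 1) it was -0.02 (limma adjusted p 0.94), where the median of all genes was 0.425. On centred log2(TPM + 1) the call of the DLEU2 row was kept. TRIM13 and KCNRG, protein-coding genes that overlap DLEU2, changed in OCI-Ly1 at 500 nM by -0.69 (SE 0.07, edgeR adjusted p 3.2e-07) and -0.73 (SE 0.23, edgeR adjusted p 0.013). The call of KCNRG was lost on log2(TPM + 1) and log2(TPM + 0.1) (limma adjusted p 0.07 and 0.068) and without 500 nM library 1 or 2 (edgeR adjusted p 0.054 for each). In TMD8 their values were -0.12 (edgeR adjusted p 0.09) and -0.30 (0.37). Strand was not stated for the counting, so fragments from DLEU2 and from genes across it cannot be told apart.

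**Figure D4:**
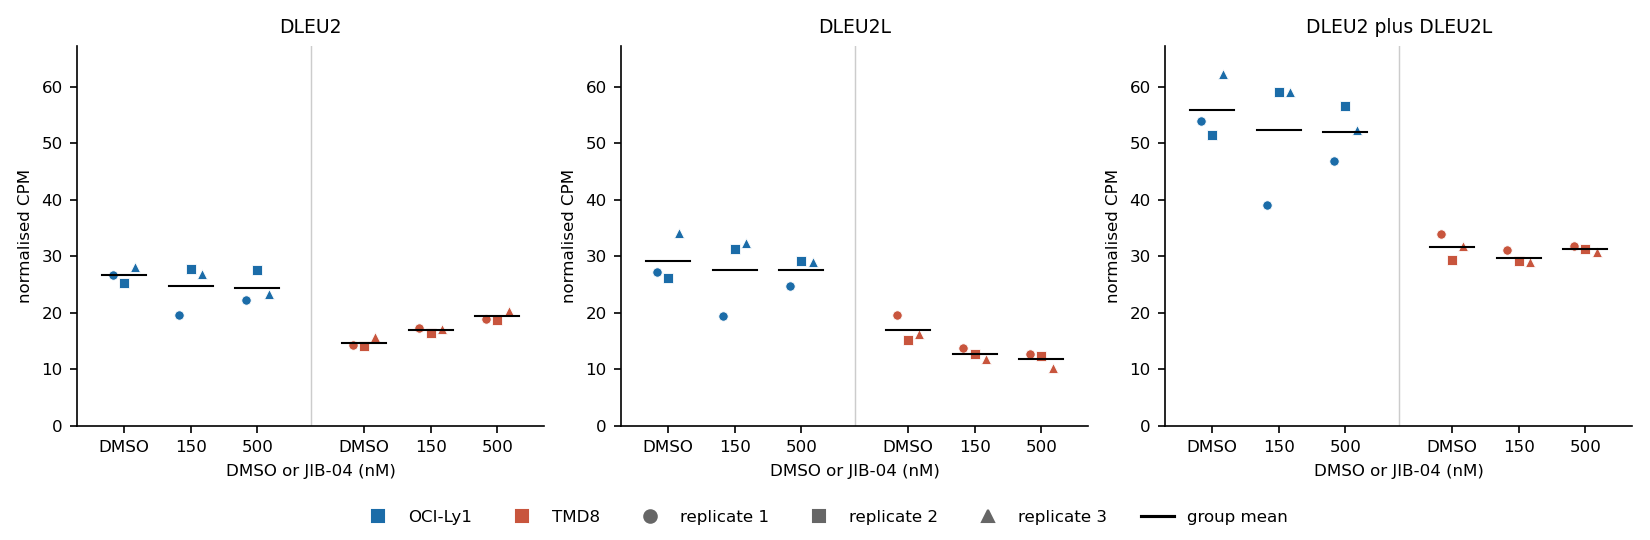
Normalised CPM (y axis) of DLEU2, of its copy DLEU2L and of both summed, in the 18 libraries by treatment (x axis), with bars at the means of 3. In TMD8 DLEU2 goes from 14.7 to 19.4 CPM and DLEU2L from 17.0 to 11.8, while the sum is 31.7 with DMSO and 31.2 at 500 nM.

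MALAT1, the abundant RNA of nuclear speckles, rose in both lines and at both doses. In OCI-Ly1 it was at 3482.5, 3807.1 and 3877.5 CPM in the DMSO libraries, 4748, 4505 and 4634 under 150 nM and 5315, 5259 and 5272 under 500 nM. MALAT1 in TMD8 stood at 3478, 3678 and 3515 CPM in the DMSO libraries, 4757, 4692 and 5523 under 150 nM and 5388, 5573 and 5508 under 500 nM. Every treated library of a line lay above its 3 DMSO libraries. In OCI-Ly1 the changes were 0.31 (SE 0.04, edgeR adjusted p 0.00022) at 150 nM, where MALAT1 was the only 1 of the 7 called, and 0.50 (SE 0.04, edgeR adjusted p 8.9e-09), or 1.42-fold, at 500 nM. On the TPM scales the 150 nM change of MALAT1 in OCI-Ly1 was 0.31 to 0.35 with limma adjusted p of 0.055 to 0.082. In TMD8 the changes were 0.49 (SE 0.06, edgeR adjusted p 9e-06) and 0.63 (SE 0.06, edgeR adjusted p 1.4e-07), or 1.54-fold. The change at 500 nM was 0.25 (limma adjusted p 0.071) on log2(TPM + 1), where the median of all genes was -0.278. From 150 nM to 500 nM MALAT1 rose in OCI-Ly1 by 0.19 (SE 0.04, edgeR adjusted p 0.00074; 0.13, limma adjusted p 0.07, on centred log2(TPM + 1)). In TMD8 it changed by 0.14 (SE 0.06, edgeR adjusted p 0.12), or by 0.20 (edgeR adjusted p 0.0094) without 150 nM library 3, which stood above the other 150 nM libraries. The difference between the lines was -0.17 (SE 0.08, edgeR adjusted p 0.13) at 150 nM, with an interval from -0.32 to -0.01, and -0.09 (SE 0.08, edgeR adjusted p 0.36) at 500 nM, with an interval from -0.24 to 0.06. With upper-quartile scaling the difference of MALAT1 was -0.28 and called at both doses (edgeR adjusted p 0.011 and 0.0047).

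NEAT1, the scaffold of paraspeckles, rose further in TMD8 than in OCI-Ly1. NEAT1 in TMD8 stood at 61.5, 78.3 and 82.6 CPM in the DMSO libraries, 129, 142 and 179.7 under 150 nM and 179.2, 181 and 179.1 under 500 nM. Both doses lay above DMSO, and 150 nM library 3 reached the level of 500 nM. At 150 nM the change was 1.02 (SE 0.10, edgeR adjusted p 5.4e-07). At 500 nM it was 1.27 (SE 0.10, edgeR adjusted p 7.7e-09), or 2.42-fold. From 150 nM to 500 nM the change in TMD8 was 0.25 (SE 0.10, edgeR adjusted p 0.065), and 0.39 (edgeR adjusted p 0.0014) without 150 nM library 3. In OCI-Ly1 NEAT1 was at 56.1, 51.9 and 55.0 CPM in the DMSO libraries, 70.9, 67.8 and 58.2 under 150 nM and 70.7, 70.1 and 77.5 under 500 nM. The treated libraries lay above DMSO there as well. The change in OCI-Ly1 at 150 nM was 0.27 (SE 0.07, edgeR adjusted p 0.10; 0.019 without 150 nM library 3 and 0.025 with DESeq2). At 500 nM it was 0.42 (SE 0.07, edgeR adjusted p 9.9e-05). The rise was smaller in OCI-Ly1 than in TMD8 by 0.74 at 150 nM (log2 difference -0.74, SE 0.13, edgeR adjusted p 0.00025) and by 0.82 at 500 nM (-0.82, SE 0.13, edgeR adjusted p 1.5e-05). The difference at 500 nM was smaller and not called on log2(TPM + 1) (-0.33, limma adjusted p 0.068) and log2(TPM + 0.1) (-0.35, limma adjusted p 0.066). For that difference the medians of all genes were 0.425 and 0.521 on these scales, beside 0.049 in the main fit. On centred log2(TPM + 1) the call of NEAT1 was kept. GENCODE 29 lists 8 NEAT1 transcripts, from 512 to 22743 bases. The mean effective length assigned to NEAT1 was 0.418 of that of MALAT1 in every group, so the table gives no separate value for the long form that builds paraspeckles.

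The changes were also compared between the lines directly. Of the 7, 3 differed in their change at 150 nM, 1 higher and 2 lower in OCI-Ly1 minus TMD8, where 23.3% of 16604 genes did (15.0% higher and 8.33% lower). At 500 nM 5 differed, 1 higher and 4 lower, where 46.4% did (28.2% higher and 18.1% lower). The fall of MIR17HG at 500 nM was deeper in OCI-Ly1 by 0.47 (log2 difference -0.47, SE 0.12, edgeR adjusted p 0.0019), and by 0.81 with the length offset (-0.81, edgeR adjusted p 9.8e-06). On log2(TPM + 1) and log2(TPM + 0.1) it was -0.34 and not called (limma adjusted p 0.067 and 0.083), where the medians of all genes were 0.425 and 0.521. On centred log2(TPM + 1) the 500 nM call of MIR17HG was kept. At 150 nM its difference was 0.36 (SE 0.11, edgeR adjusted p 0.024), the fall being called in TMD8 alone; that call of MIR17HG was lost in 10 of 24 alternatives. These were the length offset (0.24, edgeR adjusted p 0.16), library size alone (0.27, 0.085), upper-quartile scaling (0.24, 0.12), the 3 TPM scales (0.25 to 0.40, limma adjusted p 0.079 to 0.21), and the fits without OCI-Ly1 150 nM library 2 or 3, TMD8 DMSO library 1 or TMD8 150 nM library 3 (0.26 to 0.34, edgeR adjusted p 0.053 to 0.1). The change of DLEU1 at 500 nM differed by -0.12 (SE 0.12, edgeR adjusted p 0.45), with an interval from -0.35 to 0.12.

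With DMSO alone 6 of the 7 differed between the lines, 4 higher and 2 lower in OCI-Ly1, where 37.8% of genes were higher and 39.0% lower. Besides MIR155HG, NEAT1 was lower in OCI-Ly1, at 52.2 ± 2.25 CPM (SD, n = 3) against 77.6 ± 11.1 on a common scale of all 18 libraries (log2 difference -0.57, SE 0.10, edgeR adjusted p 6.2e-06). MIR17HG was higher, at 119 ± 1.47 against 75.1 ± 1.60 (0.67, SE 0.08, edgeR adjusted p 1.7e-08), and so was DLEU2, at 25.7 ± 1.42 against 15.4 ± 0.817 (0.74, SE 0.11, edgeR adjusted p 4.3e-07). MIR22HG (0.47, SE 0.18, edgeR adjusted p 0.022) and DLEU1 (0.29, SE 0.08, edgeR adjusted p 0.0025) were higher by less. The difference of MIR22HG was lost without TMD8 DMSO library 1 (0.44, edgeR adjusted p 0.055) or 2 (0.45, edgeR adjusted p 0.059), and on centred log2(TPM + 1) (0.13, limma adjusted p 0.32). MALAT1 stood at 3581 ± 188 and 3724 ± 96.7 CPM, a difference of -0.06 (SE 0.06, edgeR adjusted p 0.36) with an interval from -0.17 to 0.05.

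Levels can be compared between transcripts only per length, as TPM. With DMSO in OCI-Ly1 the order of mean TPM was MALAT1 at 539.7, DLEU1 at 40.9, MIR17HG at 36.7, NEAT1 at 18.8, DLEU2 at 12.7, MIR22HG at 2.37 and MIR155HG at 0.293. Only DLEU1 and MIR17HG overlapped among neighbours in that order. In TMD8 it was MALAT1 at 287, MIR155HG at 75.9, DLEU1 at 17.2, NEAT1 at 14.2, MIR17HG at 13.3, DLEU2 at 3.89 and MIR22HG at 0.809, with an overlap of NEAT1 and MIR17HG. MIR155HG was thus last of the 7 in one line and second in the other. At 500 nM NEAT1 passed MIR17HG in OCI-Ly1 (27.8 and 22.9 TPM) and DLEU1 in TMD8 (26.7 and 11.3 TPM), without overlap. TPM cannot be compared between the lines directly. The short rows MIR3648, MIR3687, MIR663A and MIR663B held 40.9% to 57.2% of all TPM in a TMD8 library and 0.834% to 4.95% in OCI-Ly1, but 1.27% to 2.67% and 0.00800% to 0.0545% of estimated counts. On log2(TPM + 1) the difference of MALAT1 between the lines with DMSO was 0.91 (limma adjusted p 7.2e-08) instead of -0.06, and that of NEAT1 was 0.39 (limma adjusted p 0.0034) instead of -0.57.

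The genes whose pattern was most like that of each member were found by Pearson correlation of log2 CPM over the 18 libraries, centred on each line, among 11946 genes; these are descriptions, and the libraries of a line share dose and scaling. MIR17HG was closest to TLR10, a Toll-like receptor gene of B cells (r = 0.977), which fell in OCI-Ly1 at 500 nM by 1.36 on the log2 scale and in TMD8 by 0.44. ACTR3 (0.971) and ATP6V1A (0.968) followed. MIR22HG was closest to INPP4A (0.98), HEXIM1, an inhibitor of the elongation factor P-TEFb (0.978), and SBF2 (0.965). Within OCI-Ly1 these were 0.944, 0.856 and 0.829, and within TMD8 0.991, 0.992 and 0.98. MALAT1 was closest to SCARNA9, a small Cajal body RNA (0.963), COL24A1 (0.961) and the stress-response factor ATF5 (0.956). NEAT1 was closest to FAM212B (0.975), FAM166A (0.968) and PHF1 (0.965). For NEAT1 these were 0.902, 0.876 and 0.818 within OCI-Ly1, and 0.984, 0.978 and 0.988 within TMD8. DLEU1 was closest to TOP2B (0.947) and TAF1D (0.922), and DLEU2 less closely to LRRC25 (0.866), WNT7B (0.837) and PAPLN (0.832). MIR155HG was closest to TMEM41B and CNOT6L (0.923 each) and GOLT1B (0.906), but CNOT6L had an r of 0.401 within TMD8. Among the members themselves MALAT1 and NEAT1 gave 0.91, MIR22HG and NEAT1 0.90, and MIR17HG and DLEU1 0.85. Within OCI-Ly1 and within TMD8 these were 0.87 and 0.98 for MALAT1 and NEAT1, and 0.88 and 0.78 for MIR17HG and DLEU1. For MIR22HG and NEAT1 they were 0.39 in OCI-Ly1 and 0.96 in TMD8.

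Protein-coding neighbours did not move as 1 block with the members. FRMD8, the neighbour of MALAT1 and NEAT1 on the side of lower coordinates, rose in TMD8 at 500 nM by 0.33 (SE 0.06, edgeR adjusted p 0.00026), though it gave -0.04 on log2(TPM + 1). In OCI-Ly1 FRMD8 rose by 0.21 (SE 0.07, edgeR adjusted p 0.02), a call lost without DMSO library 3 (0.13, edgeR adjusted p 0.13) or 500 nM library 2 (0.17, edgeR adjusted p 0.096) and on centred log2(TPM + 1) (0.14, limma adjusted p 0.16). WDR81, beside MIR22HG, rose in TMD8 by 0.55 (SE 0.05, edgeR adjusted p 1.4e-08) and fell in OCI-Ly1 by 0.26 (SE 0.09, edgeR adjusted p 0.019), a call lost with library size alone (-0.17, edgeR adjusted p 0.12), on log2(TPM + 1) and log2(TPM + 0.1) (limma adjusted p 0.38 and 0.37), and without DMSO library 1 or 2 or 500 nM library 1 (edgeR adjusted p 0.056 to 0.11). TLCD2, on the other side of MIR22HG, fell in OCI-Ly1 by 0.47 (SE 0.11, edgeR adjusted p 0.0017) and gave 0.19 in TMD8 (edgeR adjusted p 0.27). MRPL39, the gene after MIR155HG, fell in TMD8 by 0.54 (SE 0.07, edgeR adjusted p 1.6e-06), while MIR155HG there was not called. SPRYD7, beside DLEU2, fell in OCI-Ly1 by 0.24 (edgeR adjusted p 0.027; lost with library size alone, 0.14, on log2(TPM + 1) and log2(TPM + 0.1), 0.37 on both, and without DMSO library 3, 0.086, or 500 nM library 2, 0.1) and in TMD8 by 0.38 (edgeR adjusted p 0.00071). The neighbours NCAM2, SLITRK5, GPC5 and DLEU7 were under the filter.

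The proteins that act with these RNAs were described through lists of named genes, by how many of the tested members were called at 500 nM against DMSO. Of all tested genes 25.9% fell and 27.7% rose in OCI-Ly1 in that comparison, and 30.7% fell and 29.9% rose in TMD8. Of 15 paraspeckle proteins, the partners of NEAT1, 10 fell and 1 rose in OCI-Ly1 (median log2 fold change -0.30), and 13 fell and 0 rose in TMD8 (median -0.48), while NEAT1 rose. HNRNPH3, an RNA-binding protein, fell by 0.69 in OCI-Ly1 and by 0.67 in TMD8. RBM14 fell in OCI-Ly1 by 0.64 (SE 0.07, edgeR adjusted p 3.7e-07), DAZAP1 fell in TMD8 by 0.70 (SE 0.04, edgeR adjusted p 3.8e-10), and TAF15 rose in OCI-Ly1 by 0.44 (SE 0.07, edgeR adjusted p 3.4e-05). Of 18 nuclear speckle proteins, the partners of MALAT1, 14 fell and 1 rose in OCI-Ly1 (median -0.24), and 14 fell and 0 rose in TMD8 (median -0.47). The splicing factors SRSF1 and SRSF3 fell by 0.59 and 0.55 in OCI-Ly1 and by 0.85 and 0.88 in TMD8, and SRRM2 rose in OCI-Ly1 by 0.37. The number of speckle proteins lower in OCI-Ly1 ran from 5 to 16 over the alternatives, fewest on log2(TPM + 1), and in TMD8 from 13 to 17. At 150 nM 0 of both lists were called in OCI-Ly1, where 0.889% of all tested genes were called. In TMD8 at 150 nM 14 of 15 and 14 of 18 fell, where 25.0% of all tested genes did.

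Of 16 proteins that make or use microRNAs, 3 rose and 5 fell in OCI-Ly1 (median 0.02), and 4 rose and 8 fell in TMD8 (median -0.09). Over the alternatives 0 to 6 rose and 3 to 11 fell in TMD8, with a median from -0.46 to 0.04. DGCR8 and DROSHA, which cut the hairpins in the nucleus, rose in OCI-Ly1 by 0.31 (SE 0.06, edgeR adjusted p 0.00032) and 0.29 (SE 0.06, edgeR adjusted p 0.00023). DICER1 fell there by 0.31 (SE 0.06, edgeR adjusted p 3e-04), and the helicase DDX5 by 0.61 (SE 0.04, edgeR adjusted p 1.2e-09). In TMD8 XPO5, which exports hairpins, fell by 0.51 (SE 0.06, edgeR adjusted p 1.2e-06) and ADAR by 0.47 (SE 0.05, edgeR adjusted p 2.8e-07). TNRC6B and AGO3, parts of the silencing complex, rose there by 0.48 (SE 0.06, edgeR adjusted p 2.6e-06) and 0.40 (SE 0.09, edgeR adjusted p 0.00097). On log2(TPM + 1) the values of TNRC6B and AGO3 were 0.11 and 0.02 and not called (limma adjusted p 0.33 and 0.89).

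**Figure D5:**
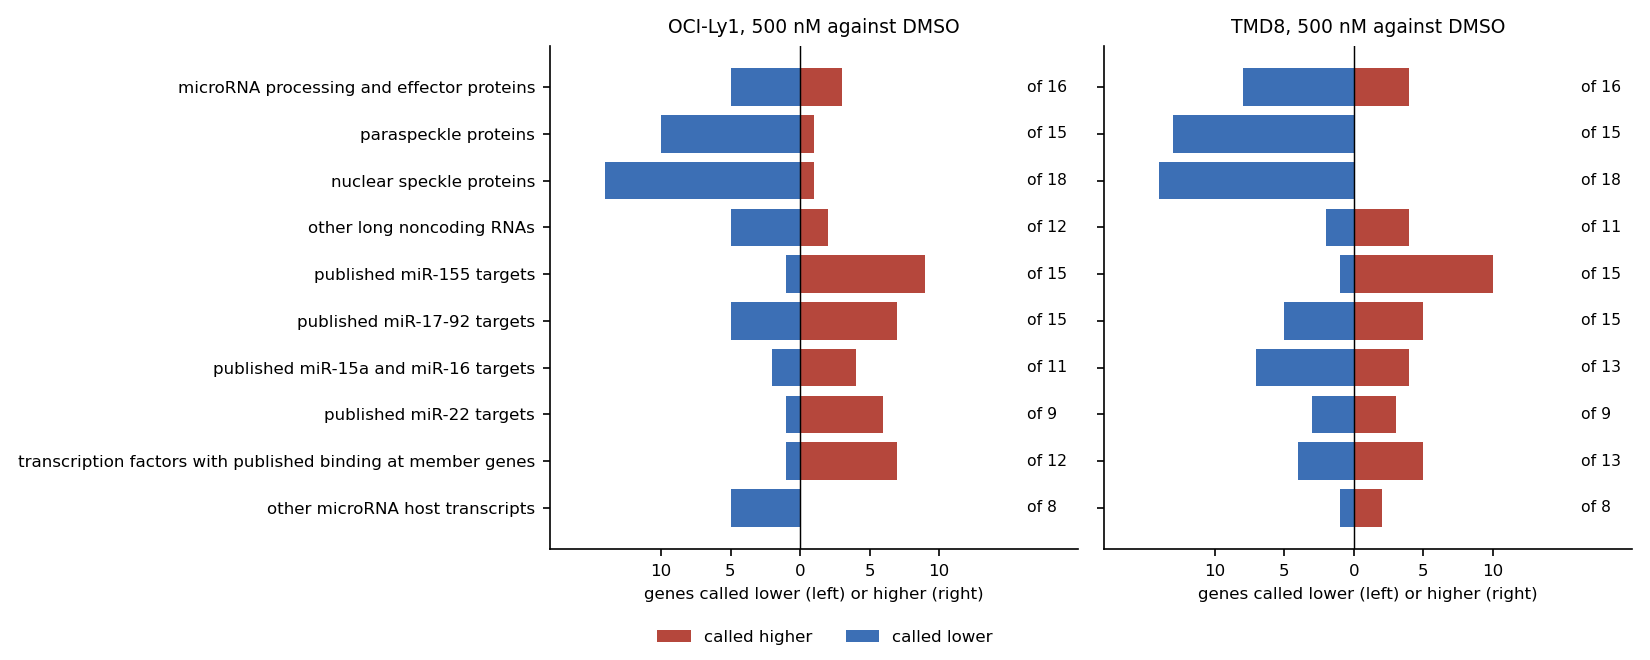
Number of genes called lower (left of 0) and higher (right of 0) at 500 nM against DMSO in each of 10 lists, for OCI-Ly1 and TMD8; the number tested stands at the right of each bar. Paraspeckle and nuclear speckle proteins lie mostly to the left in both lines, and published miR-155 targets mostly to the right.

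Published targets of the microRNAs did not follow the level of their host in a fixed direction. Of 15 tested miR-155 targets, 9 rose and 1 fell in OCI-Ly1 (median 0.39), and 10 rose and 1 fell in TMD8 (median 0.54), although MIR155HG was called only in OCI-Ly1, and higher. CEBPB, a transcription factor, rose in OCI-Ly1 by 4.10 (SE 0.12, edgeR adjusted p 8.9e-15) and in TMD8 by 3.02 (SE 0.10, edgeR adjusted p 1.8e-13). The stress protein gene TP53INP1 rose by 1.28 and 3.11. Of 15 targets of the miR-17 cluster 7 rose and 5 fell in OCI-Ly1 (median 0.07), and 5 rose and 5 fell in TMD8 (median 0.04). In TMD8 each of these numbers ran from 1 to 8 over the alternatives. CDKN1A, the cell cycle inhibitor p21, rose by 3.05 (SE 0.07, edgeR adjusted p 5.3e-16) and 1.48 (SE 0.06, edgeR adjusted p 2.4e-12), and it is also a published target of miR-22.

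Of 9 miR-22 targets 6 rose and 1 fell in OCI-Ly1 (median 0.26), and 3 rose and 3 fell in TMD8 (median -0.02), where MIR22HG rose more. The number that rose in OCI-Ly1 ran from 2 to 7 over the alternatives. MYCBP fell in both lines, by 0.32 (SE 0.06, edgeR adjusted p 0.00049) and 0.60 (SE 0.13, edgeR adjusted p 0.00045), the former not called on log2(TPM + 1) (-0.17, limma adjusted p 0.069). Of the miR-15a and miR-16 targets 4 rose and 2 fell among 11 tested in OCI-Ly1 (median 0.11), and 4 rose and 7 fell among 13 in TMD8 (median -0.22). BCL2, the apoptosis inhibitor, rose in TMD8 by 1.02 (SE 0.05, edgeR adjusted p 5.2e-12), while CCND2 and CDC25A, which drive the cell cycle, fell there by 0.60 and 0.69. VEGFA rose in OCI-Ly1 by 2.90 (SE 0.14, edgeR adjusted p 9.1e-12). At 500 nM more than 50% of all genes were called, and the medians of all tested genes were 0.00 and 0.04, against which these list medians are to be read.

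Transcription factors with published binding at the members included MYC, a regulator of MIR17HG. MYC was at 315, 299 and 399 mean CPM with DMSO, 150 nM and 500 nM in OCI-Ly1, where it rose by 0.34 at 500 nM (SE 0.05, edgeR adjusted p 1.1e-05), and at 348, 224 and 155 in TMD8, where it fell by 1.16 (SE 0.06, edgeR adjusted p 1.1e-11). MIR17HG fragments fell in both lines. FOSB, a partner in AP-1, went from 0.527 to 34.2 CPM in TMD8, a rise of 6.01 on the log2 scale (SE 0.21, edgeR adjusted p 4.3e-13). In OCI-Ly1 its mean was 0.391 CPM with DMSO and 1.58 CPM at 500 nM (log2 change 2.02, SE 0.40, edgeR adjusted p 0.00036). JUNB rose in OCI-Ly1 by 1.32 (SE 0.09, edgeR adjusted p 1.2e-09) and in TMD8 by 0.99. REL, an NF-kB subunit, fell in OCI-Ly1 by 0.85 (SE 0.06, edgeR adjusted p 9.5e-10). In TMD8 REL rose by 0.61 (SE 0.06, edgeR adjusted p 6.2e-08), from 64.9 to 99.3 CPM, a call lost on log2(TPM + 1) (0.23, limma adjusted p 0.063). The hypoxia factor gene EPAS1 stood at 0.325 and 5.74 CPM in TMD8 (log2 change 4.12, SE 0.30, edgeR adjusted p 2.1e-09). Of the list as a whole 7 rose and 1 fell among 12 tested in OCI-Ly1, and 5 rose and 4 fell among 13 in TMD8. Over the alternatives 3 to 9 rose and 3 to 8 fell in TMD8.

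Other noncoding transcripts gave a background for the 7. Of 8 further microRNA host rows that were tested, out of 13 in the tables, 0 rose and 5 fell in OCI-Ly1 (median -0.41), and 2 rose and 1 fell in TMD8 (median 0.21). The share of all tested genes called at 500 nM was 53.6% in OCI-Ly1 and 60.7% in TMD8. Over the alternatives 1 to 7 of these host rows fell in OCI-Ly1 and 0 to 5 rose in TMD8. MIRLET7DHG fell in both lines, by 0.98 (SE 0.14, edgeR adjusted p 1.3e-05) and 0.49 (SE 0.12, edgeR adjusted p 0.0017). MIR210HG fell in OCI-Ly1 by 0.58 (SE 0.20, edgeR adjusted p 0.019) and rose in TMD8 by 0.51 (SE 0.19, edgeR adjusted p 0.032), and MIR181A2HG rose in TMD8 by 0.97 (SE 0.39, edgeR adjusted p 0.041) from 0.392 CPM; these 3 calls were lost in 4 to 10 alternatives each. Of the other long noncoding RNAs listed, 2 rose and 5 fell among 12 in OCI-Ly1, and 4 rose and 2 fell among 11 in TMD8. PVT1, which lies beside MYC, rose in both lines, by 0.74 (SE 0.09, edgeR adjusted p 1.7e-06) and 1.60 (SE 0.09, edgeR adjusted p 8.6e-11). CRNDE rose in OCI-Ly1 by 0.90 (SE 0.11, edgeR adjusted p 2.3e-06) and was at 0 in all TMD8 libraries. DANCR fell in TMD8 by 0.72 (SE 0.05, edgeR adjusted p 1.9e-09), and KCNQ1OT1 fell in OCI-Ly1 by 0.48 (SE 0.05, edgeR adjusted p 5.7e-07). In TMD8 KCNQ1OT1 rose by 0.39 (SE 0.07, edgeR adjusted p 7.3e-05), a call lost on log2(TPM + 1) (0.01, limma adjusted p 0.94).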

How the data were processed

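RNA was measured in 18 libraries, 3 technical replicates in each of 6 groups. For each line the authors deposited estimated counts in 1 table and TPM (level per transcript length, scaled to the same total in each library) in another. Per the submitters' processing notes, kallisto 0.46.0, R 4.3.1, DESeq2 1.40.2 and the build hg19 were used; the transcript index, the step to genes and strand are not given in the sources used here. The deposited estimated counts were rounded to whole numbers and tested with edgeR 4.0.16 in R 4.3.3 (quasi-likelihood, TMM, filterByExpr), with the 9 libraries of a line in 1 fit and all 18 for differences between lines. Adjustment was by Benjamini-Hochberg over all tested genes, and a standard error is the size of a log2 change over the root of its F value. CPM are TMM-normalised and given as mean ± SD of 3 libraries where averaged. The deposited TPM values were used for order of level, for mean length (limma 3.58.1, genes with at least 10 estimated counts in each library) and in alternatives. Intervals of a log2 change are 95% intervals.

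The members and lists were chosen with earlier results of these data known. Named genes are all members, their hairpins and nearest protein-coding neighbours, the 3 genes most like each member in pattern (prior count 2, at least 5 CPM in some group) and, in each list and line, the 2 largest called rises and falls at 500 nM; TRIM13, KCNRG, DLEU2L, and second values of a gene named in the other line, were added after values were seen. FIRRE, LINC-PINT and LINC01578 were not analysed here. Some genes that this rule names are not reported here. NORAD and CYTOR were matched by older symbols. The method was tested on simulated data. Alternatives were DESeq2 1.42.0, other scalings and filters, unrounded counts, TPM scales, a replicate block, fewer groups, each library left out, and 2 added after seeing the data: a length offset, and DLEU2 summed with DLEU2L. Within-group library pairs differed by more than sampling noise (chi-square per gene 1.65 to 11.5), so none was merged.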

Additional observations from a re-analysis of the deposited data

Results flagged for a closer look

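The lines differed in the change of several members by the test of the difference itself, given as the log2 change of OCI-Ly1 less the change of TMD8, both against DMSO. At 150 nM it was 0.36 for MIR17HG (SE 0.11, edgeR adjusted p 0.024), -1.33 for MIR22HG (SE 0.24, edgeR adjusted p 0.00027) and -0.74 for NEAT1 (SE 0.13, edgeR adjusted p 0.00025). At 500 nM it was 1.61 for MIR155HG (SE 0.42, edgeR adjusted p 0.0029), -0.47 for MIR17HG (SE 0.12, edgeR adjusted p 0.0019) and -1.64 for MIR22HG (SE 0.23, edgeR adjusted p 2.8e-06). It was -0.50 for DLEU2 (SE 0.15, edgeR adjusted p 0.0081) and -0.82 for NEAT1 (SE 0.13, edgeR adjusted p 1.5e-05). The call of MIR17HG at 150 nM was lost in 10 of 24 alternatives (0.24 to 0.40, adjusted p 0.053 to 0.21). On log2(TPM + 1) the calls at 500 nM of NEAT1 (-0.33, limma adjusted p 0.068) and MIR17HG (-0.34, limma adjusted p 0.067) were lost. The median of all genes for that difference was 0.425 on that scale, and both calls were kept on centred log2(TPM + 1). The value for DLEU2 became -0.06 (edgeR adjusted p 0.79) once DLEU2L was summed with it, and that for MIR17HG at 500 nM became -0.81 (edgeR adjusted p 9.8e-06) with the length offset. With 3 libraries a group, no library was tested for standing apart.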

How the results depend on the processing

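Of 1259 comparisons of a member's value with an alternative, 1146 stayed on the same side of the threshold, 69 lost and 30 gained the call, and 14 turned. A turn was counted only where the main fit or the alternative called the gene. Values called in neither could change sign and still be among the 1146. That of MIR155HG in OCI-Ly1 at 150 nM, for example, ran from -0.42 to 0.55. The turned values were, with the length offset, MIR17HG in TMD8 at 500 nM against DMSO (0.02) and against 150 nM (0.28; 0.23 on centred TPM); with DLEU2L summed, DLEU2 in TMD8 (-0.09 at 150 nM and -0.02 at 500 nM); and on log2(TPM + 1) and log2(TPM + 0.1) the line differences at 500 nM of DLEU1 (0.34 and 0.37) and MALAT1 (0.39 on both) and, with DMSO, those of MALAT1 (0.91 on both, 0.15 centred) and NEAT1 (0.39 and 0.41). Among other named genes 15 of 2837 turned, all at 500 nM on TPM scales: ADAR (0.11 and 0.12) and, centred, BCL2 (-0.12) in OCI-Ly1, and in TMD8 SRRM2 (-0.32 on both), CYLD (-0.17 and -0.21), CCNE1 (-0.31 and -0.33), TMEM41B (-0.33 and -0.36), CNOT6L (-0.32 and -0.35) and FRMD8 (-0.04 on both). In TMD8 at 500 nM the median of all genes moved from 0.0414 to 0.134 with library size alone, 0.168 with upper-quartile scaling and -0.278 on log2(TPM + 1), and the share of called genes that were higher from 49.3% to 59.4%, 63.3% and 16.1%; in OCI-Ly1 the share moved from 51.6% to 64.0% with library size alone, 72.2% on log2(TPM + 1) and 37.2% centred.

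In OCI-Ly1 at 150 nM against DMSO, where 1 member and 139 genes were called, DESeq2 called 2 and 240, no filter 2 and 323, log2(TPM + 1) 0 and 57, log2(TPM + 0.1) 0 and 65, centred TPM 0 and 36, and a fit of 2 groups 81 genes; leaving out 1 library gave 1 to 2 members and 65 to 339 genes. Centred TPM called 2 members at 500 nM against 150 nM in OCI-Ly1. In TMD8 that comparison gave 2 members without a filter, on centred TPM, in a fit of 2 groups and with the length offset, and 1 to 3 with 1 library left out.

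Whether the replicate numbers pair the libraries was not settled, because only same-numbered pairs were correlated. In each line 2 of 9 such pairs were above 0.1 (range -0.05 to 0.15), those of DMSO with 150 nM for numbers 1 and 3. With a replicate block, 2 members were called in TMD8 at 500 nM against 150 nM (NEAT1, 0.27, edgeR adjusted p 0.008), MIR22HG gained a call in OCI-Ly1 at 500 nM against 150 nM (0.45, edgeR adjusted p 0.043) and DLEU1 lost its difference between the lines with DMSO (0.24, edgeR adjusted p 0.055). Depth limits MIR155HG in OCI-Ly1, at 1 to 32 counts a library.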
